A study of Mus musculus with 4 samples.

Results

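DNA repair genes were read from RNA sequencing of the acid-secreting corpus of the stomach in mice given HDT and in vehicle mice. The 49 genes were a list chosen by name for their place in a repair pathway, with earlier results of these data known. They were taken out of 52125 rows in the table, and all 49 passed the filter on low counts. They fall into Fanconi anaemia genes (9), homologous recombination genes (18), mismatch repair genes (3), excision repair genes (8), end-joining genes (6) and damage signalling genes (5). The HDT group held 2 wild-type C57BL/6 mice aged 6 to 8 weeks, sampled at 48 hr after 1 intraperitoneal dose of 5 mg HDT per 20 g of body weight. The vehicle group held 2 wild-type C57BL/6 mice of the same age at 48 hr. Each library came from 1 mouse. The labels leave HDT unexplained. In studies of gastric injury the letters commonly stand for tamoxifen given at a high dose. The titles call the controls vehicle while the protocol text calls them untreated, so whether they were injected is not known. According to its title, the study asks how Iqgap3 and Ras act on dividing stem cells of the corpus in homeostasis and repair.

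Cells meet several kinds of DNA damage, and each repair pathway handles its own. Fanconi anaemia proteins open crosslinks between strands, homologous recombination copies an intact sister to mend breaks, and mismatch repair corrects errors left by the replicating polymerase. Excision repair removes damaged bases or short stretches, end joining ligates broken ends directly, and the checkpoint kinases halt the cell cycle while repair goes on. Crosslink repair, recombination and mismatch repair work mostly in cells that replicate DNA, whereas the proteins of base and nucleotide excision and of classical end joining are also present in resting cells. In the corpus, dividing cells sit mainly in the isthmus of the gland, and the acid-secreting parietal cells and enzyme-secreting chief cells divide rarely.

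Most repair genes were higher after HDT. Of the 49, 38 were higher and 0 were lower (limma, adjusted p below 0.05 over 18285 genes), which is 77.6% against 18.4% higher among all tested genes, where 19.3% were lower. The median log2 fold change of the 49 was 0.59, and that of all tested genes was 0.00. A rise of at least 2-fold was called for 13 of the 49, against 4.07% of all tested genes. Both HDT libraries lay above both vehicle libraries for 43 members and below them for 2, against 35.3% and 35.5% of all tested genes. The libraries did not overlap for these 45 members, against 70.8% of all tested genes, and overlapped for 4. edgeR on the recovered reads called 37 members higher and 0 lower. At an unadjusted p below 0.05, 1 member was lower, Xpc. Without HDT replicate 1 the counts were 31 higher and 1 lower, and without vehicle replicate 1 they were 32 and 1. In both cases the lower gene was Blm.

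Fold changes are relative to the scaling by TMM, under which the median tested gene did not change. The values as deposited give a median log2 fold change of 0.526 over all tested genes. On that scale all 49 repair genes had a positive fold change and 48 were called higher, beside 62.8% of all tested genes. Levels are CPM, the reads of a gene scaled to the TMM-adjusted size of its library. In whole tissue, a change in the share of cells that carry a transcript and a change in the amount per cell cannot be told apart.

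The libraries held 42175023 and 42674985 reads in HDT mice and 41536686 and 42104568 reads in vehicle mice, in genes of the table. The repair genes had between 39 and 2591 reads in a library, so the lowest ones are measured with few reads. With 2 mice in each group the p-values rest on a spread shared across genes. No two-sided exact permutation test of 2 against 2 can go below a p of 0.333.

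**Figure D1:**
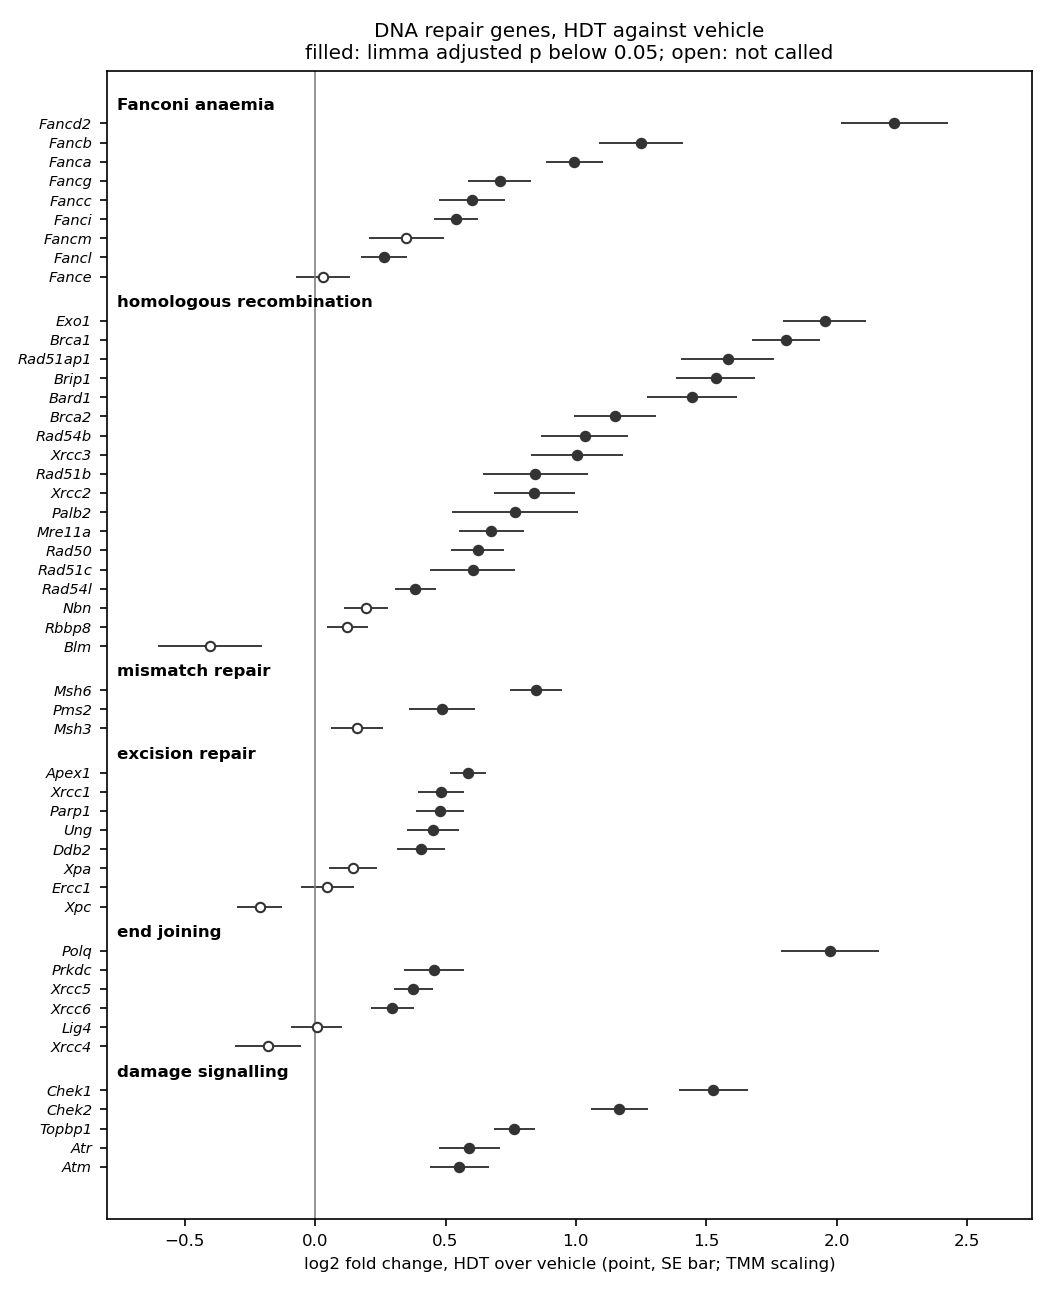
Log2 fold change of each of the 49 repair genes, HDT over vehicle, with its SE (limma, 2 mice in each group). Filled points are called higher and open points have no call. The values run from −0.40 for Blm to 2.22 for Fancd2, and the homologous recombination genes span nearly this whole range.

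Among the Fanconi anaemia genes, 7 of 9 were higher, against 18.4% of all tested genes, with a median log2 fold change of 0.60. The largest rise of all 49 was that of Fancd2, on chromosome 6 at 113531682 to 113597017 (GRCm38), which encodes the protein that is ubiquitinated when the pathway meets a crosslink. Fancd2 stood at 8.17 and 7.17 CPM in the HDT mice, against 1.34 and 1.97 CPM in the vehicle mice. The groups lay far apart, with a log2 fold change of 2.22 (SE 0.21, limma adjusted p = 0.000129). Fanci, the partner with which Fancd2 forms a clamp on DNA, had 17.2 and 16.8 CPM in HDT mice and 11.7 and 11.6 CPM in vehicle mice. Its log2 fold change of 0.54 (SE 0.08) was much smaller than that of Fancd2. Of its exon bases, 15.95% are shared with Polg on the other strand, so the reads may be mixed.

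The other 7 Fanconi genes encode the core complex, the ubiquitin ligase that acts on Fancd2 and Fanci. Fancb was at 5.19 and 4.44 CPM in HDT mice, against 2.07 and 1.95 CPM in vehicle mice. Fanca was at 14.7 and 13.0 CPM in HDT mice, against 6.65 and 7.23 CPM in vehicle mice. Both genes rose by about 2-fold without overlap, at log2 fold changes of 1.25 and 0.99. Smaller rises were called for Fancg (0.71), Fancc (0.60) and Fancl (0.26). Of these core genes, 3 share over 10% of their exon bases with a gene on the other strand that was itself called higher, so their reads may be mixed. The shares are 16.4% for Fancc with Gm16133 (log2 fold change 0.98), 13.7% for Fancl with Vrk2 (0.33) and 10.5% for Fanca with Zfp276 (0.58). Fancl, the catalytic subunit of the ligase, lost its call in each fit without 1 library (limma adjusted p = 0.0922 to 0.187) and in the edgeR test (adjusted p = 0.05004). Fancm, the translocase that anchors the complex on DNA, was at 4.97 ± 0.503 CPM in HDT mice and 3.89 ± 0.204 CPM in vehicle mice (SD, n = 2 each) with no call (limma adjusted p = 0.0907). Fance was at 8.56 ± 0.0865 CPM in HDT mice and 8.39 ± 0.455 CPM in vehicle mice, and its libraries overlapped.

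Of 18 homologous recombination genes, 15 were higher, against 18.4% of all tested genes, and the median log2 fold change was 0.84. Exo1, the exonuclease that extends the resected end, is on chromosome 1 at 175880581 to 175913489. It was at 9.84 and 7.67 CPM in HDT mice, against 2.16 and 2.29 CPM in vehicle mice, a log2 fold change of 1.95 (SE 0.16, limma adjusted p = 7.21e-05). Every HDT library was thus more than 3 times any vehicle library. Brca1, on chromosome 11 at 101488764 to 101551955, encodes the ubiquitin ligase that steers breaks into recombination. It was at 17.8 and 14.3 CPM in HDT mice, against 4.35 and 4.73 CPM in vehicle mice (log2 fold change 1.81, SE 0.13, limma adjusted p = 4.08e-05). Its obligate partner Bard1 had a log2 fold change of 1.45, and the Brca1-bound helicase Brip1 one of 1.54.

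Brca2, which loads the recombinase on single DNA strands, was at 6.88 and 5.80 CPM in HDT mice, against 2.61 and 3.08 CPM in vehicle mice. Palb2, which bridges Brca1 and Brca2, was at 3.71 and 2.36 CPM in HDT mice and 1.87 and 1.60 CPM in vehicle mice. Brca2 rose by 1.15 on the log2 scale and Palb2 by 0.77. The Palb2 call rested on few reads, and without HDT replicate 1 its log2 fold change was 0.45 (limma adjusted p = 0.209). Leaving out a vehicle library also ended the call, with limma adjusted p-values of 0.0517 (vehicle replicate 1) and 0.132 (vehicle replicate 2). Rad51ap1, a partner that stimulates strand invasion, was at 7.97 and 6.26 CPM in HDT mice, against 2.10 and 2.61 CPM in vehicle mice. Its log2 fold change was 1.58 (SE 0.18, limma adjusted p = 0.000339).

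All 4 recombinase paralogs on the list rose, at log2 fold changes of 1.00 for Xrcc3, 0.84 for Rad51b, 0.84 for Xrcc2 and 0.60 for Rad51c. Their mean level in vehicle mice was between 1.23 and 2.35 CPM. Rad51c lost its call without HDT replicate 1 (limma adjusted p = 0.0776) and without vehicle replicate 1 (0.0942). Rad51b lost it without HDT replicate 1 (0.064) and without vehicle replicate 2 (0.0515). The DNA translocases Rad54b and Rad54l, which act after the recombinase is loaded, rose by 1.03 and 0.38. Counting is uncertain for both. Rad54b shares 35.8% of its exon bases with Fsbp on the same strand, and Rad54l shares 15.4% with Lrrc41 on the other.

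Rbbp8, the cofactor that starts the cut, was at 30.2 ± 2.36 CPM in HDT mice and 27.7 ± 1.03 CPM in vehicle mice with no call (limma adjusted p = 0.263). In the complex that senses the break, log2 fold changes were 0.68 for the nuclease Mre11a and 0.62 for the ATPase Rad50, both called higher. The third subunit, Nbn, was at 22.2 and 20.2 CPM in HDT mice, against 18.0 and 19.1 CPM in vehicle mice. Its libraries did not overlap but it was not called (log2 fold change 0.20, limma adjusted p = 0.105).

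Blm, the helicase that undoes joined DNA molecules and limits crossovers, had a negative fold change. It had 9.57 and 6.99 CPM in HDT mice, against 9.32 and 12.6 CPM in vehicle mice. The libraries overlapped, and the log2 fold change was −0.40 with a 95% interval of −0.89 to 0.08 (limma adjusted p = 0.165). Without HDT replicate 1 it was called lower at −0.62 (limma adjusted p = 0.0447), and without vehicle replicate 1 also at −0.62 (0.0484). On the deposited scale its log2 fold change was 0.13.

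**Figure D2:**
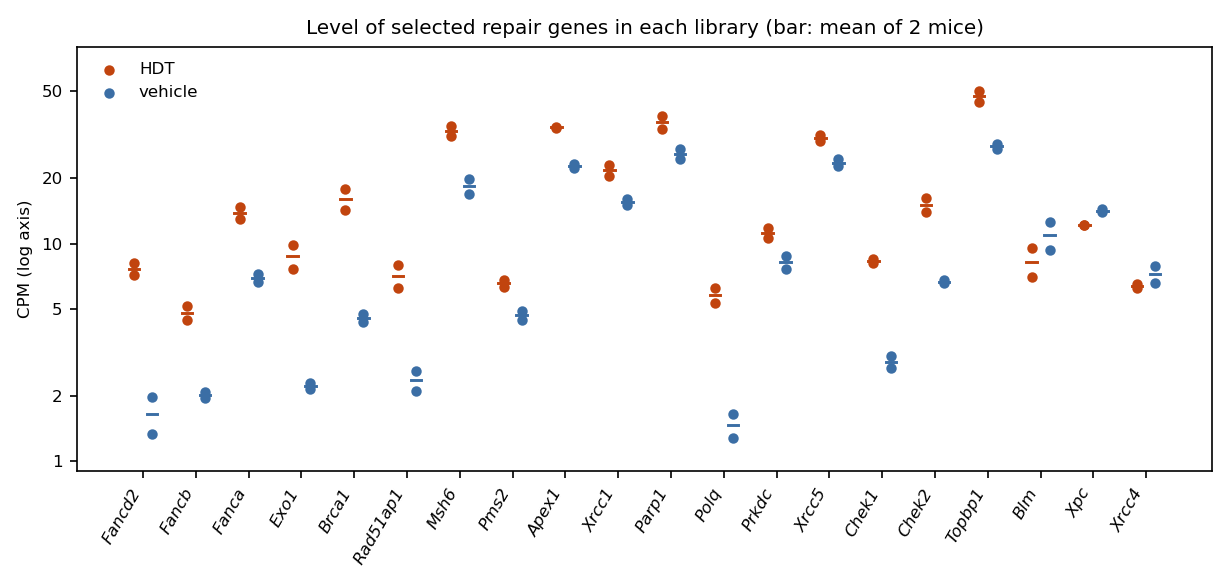
CPM in each library on a log axis, HDT left of vehicle for each gene, with a bar at the mean of 2 mice. The genes are the 3 most changed called members of each group (2 for mismatch repair) and the 3 genes with a negative fold change. Fancd2, Exo1 and Polq stand below 2.5 CPM in both vehicle mice and above 5 CPM in both HDT mice, while the libraries of Blm overlap.

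In mismatch repair, Msh6 and Pms2 rose and Msh3 was not called, beside 18.4% of all tested genes called higher. Msh6, which recognises base mismatches and small loops, is on chromosome 17 at 87975062 to 87990892. It was at 34.8 and 31.1 CPM in HDT mice, against 16.8 and 19.9 CPM in vehicle mice, a log2 fold change of 0.85 (SE 0.10, limma adjusted p = 0.000448). Msh3, which takes the place of Msh6 for larger loops, was at 10.5 and 10.03 CPM in HDT mice and 8.83 and 9.55 CPM in vehicle mice. Its log2 fold change was 0.16 with a 95% interval of −0.07 to 0.39. Pms2, which nicks the strand to be corrected, was at 6.82 and 6.30 CPM in HDT mice, against 4.46 and 4.91 CPM in vehicle mice. It rose by 0.49 on the log2 scale, and lost its call without HDT replicate 1 (limma adjusted p = 0.0807) and without vehicle replicate 1 (0.0928), which left 1 gene of 3 called.

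Of 8 excision repair genes 5 were higher with log2 fold changes of 0.40 to 0.59, against 18.4% of all tested genes. Of the 8, 0 rose 2-fold, and the group median was 0.43. All 5 calls held in each fit without 1 library. The called genes include all 4 of base excision and strand-break repair. Apex1, the nuclease that cuts at sites without a base, was at 34.3 and 34.1 CPM in HDT mice, against 23.2 and 22.4 CPM in vehicle mice (log2 fold change 0.59, SE 0.07, limma adjusted p = 0.00039). The replicates of each group were close together. Of the Apex1 exon bases in the annotation, 61.7% are shared with Pip4p1 on the other strand. The scaffold Xrcc1 was at 22.9 and 20.5 CPM in HDT mice and 15.1 and 15.998 CPM in vehicle mice. The break sensor Parp1 was at 38.7 and 33.6 CPM in HDT mice and 24.5 and 27.2 CPM in vehicle mice. Both had a log2 fold change of 0.48, and Ung, which removes uracil from DNA, one of 0.45.

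Of the nucleotide excision genes, which deal with bulky and ultraviolet damage, Ddb2 alone of 4 was called. Ddb2, a damage sensor, was at 13.5 and 12.8 CPM in HDT mice, against 9.89 and 10.02 CPM in vehicle mice, and rose by 0.40. Its exons share 23.8% of their bases with Acp2 on the other strand. Xpc, the other sensor, was at 12.2 and 12.2 CPM in HDT mice, against 13.9 and 14.5 CPM in vehicle mice. Both HDT libraries were below both vehicle libraries, at a log2 fold change of −0.21 that was not called (limma adjusted p = 0.0872) and that was 0.32 on the deposited scale. Xpa, which verifies the lesion, and the nuclease subunit Ercc1 had log2 fold changes of 0.15 and 0.05 without a call.

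Among end-joining genes, Polq, the polymerase of the mutagenic branch that anneals short homologies, is on chromosome 16 at 37011786 to 37095417. It was at 6.24 and 5.35 CPM in HDT mice, against 1.28 and 1.66 CPM in vehicle mice, a log2 fold change of 1.97 (SE 0.19, limma adjusted p = 0.000143). Log2 fold changes in the classical branch were smaller. Of the Ku subunits, which cap the broken end, Xrcc5 was at 31.5 and 29.6 CPM in HDT mice, against 22.7 and 24.4 CPM in vehicle mice. Prkdc, the kinase they recruit, was at 11.9 and 10.6 CPM in HDT mice, against 7.64 and 8.77 CPM in vehicle mice. Neither overlapped between the groups, and log2 fold changes were 0.38 for Xrcc5, 0.30 for the other subunit Xrcc6 and 0.45 for Prkdc. The ligase Lig4 was at 10.3 and 10.3 CPM in HDT mice and 10.7 and 9.87 CPM in vehicle mice. Its partner Xrcc4 was at 6.49 and 6.26 CPM in HDT mice and 7.90 and 6.62 CPM in vehicle mice, with no call (limma adjusted p = 0.305) and a log2 fold change of −0.18, which was 0.35 on the deposited scale. Of 6 genes, 4 were higher, against 18.4% of all tested genes. The count was 2 without HDT replicate 1 or without vehicle replicate 1, where Xrcc6 (limma adjusted p = 0.114 and 0.095) and Prkdc (0.0777 and 0.0831) lost their calls, and 3 without vehicle replicate 2, where Xrcc6 did (0.0551).

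All 5 damage signalling genes were higher, and their calls held in each fit without 1 library. Of all tested genes 18.4% were higher. Among the 5, the larger fold changes were those of the downstream kinases. Chek1, the checkpoint kinase that answers stalled replication, is on chromosome 9 at 36708482 to 36727065. It was at 8.50 and 8.12 CPM in HDT mice, against 2.699 and 3.05 CPM in vehicle mice, a log2 fold change of 1.53 (SE 0.13, limma adjusted p = 9.83e-05). Chek2, the checkpoint kinase that answers breaks, was at 16.2 and 13.97 CPM in HDT mice, against 6.56 and 6.82 CPM in vehicle mice, and rose by 1.17. The apical kinases Atr and Atm rose by 0.59 and 0.55. Topbp1, which activates Atr, was at 50.4 and 44.7 CPM in HDT mice, against 27.3 and 28.6 CPM in vehicle mice, and rose by 0.76.

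Levels can be set against each other only per length, here as CPM per kilobase of the union of exons (RPKM). Apex1 was the highest repair gene in both groups, at 24.1 RPKM in HDT mice and 16.02 RPKM in vehicle mice. Xrcc5 was next at 11.95 and 9.21 RPKM. The rank of Apex1 is uncertain, as 61.7% of its exon bases are shared with Pip4p1 on the other strand. Polq was the lowest in vehicle mice, at 0.598 RPKM in HDT mice and 0.151 RPKM in vehicle mice. Chek2 had rank 8 of 49 in HDT mice and rank 17 in vehicle mice, and Fancd2 rank 35 in HDT mice and rank 48 in vehicle mice. Of the 13 genes that rose at least 2-fold, 12 were under 0.8 RPKM in vehicle mice, as were 10 of the other 36. Fold and vehicle level share the same vehicle libraries, so this relation is a description only.

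Other repair genes, from a list of 110 that leaves out the 49, were also tested. Of 106 of them, 51 (48.1%) were higher and 4 (3.77%) lower, with a median log2 fold change of 0.29, beside 18.4% and 19.3% of all tested genes. Of 35 further crosslink and recombination genes 18 were higher and 2 lower, led by the nuclease-helicase Dna2 (log2 fold change 1.79) and the helicase Recql4 (1.78). Of 33 further excision genes 13 were higher and 2 lower. The 2 became 1 without HDT replicate 2 and 0 without any other single library or in the DESeq2 test. In this list the largest changes were those of the glycosylase Neil3 (2.22) and the ligase Lig1 (1.57). Lig1 also joins fragments in replication, and was at 58.9 and 52.6 CPM in HDT mice, against 17.7 and 20.0 CPM in vehicle mice. Of 16 further signalling genes 8 were higher, among them the Chek1 activator Clspn (1.80) and the fork protein Timeless (1.29). Of 4 further mismatch genes 3 were higher, with Pms1 at 0.99.

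Again, 18.4% of all tested genes were higher and 19.3% lower. Of 7 further end-joining genes 5 were higher by small steps, including the end-trimming nuclease Dclre1c (0.47) and the resection inhibitor Rif1 (0.40). That count was 2 without HDT replicate 1 or vehicle replicate 1 and 3 without HDT replicate 2 or vehicle replicate 2. Dclre1c lost its call without HDT replicate 1 (limma adjusted p = 0.158), vehicle replicate 1 (0.153) and vehicle replicate 2 (0.0651). Of 11 translesion and direct reversal genes 4 were higher, led by the ligase Rad18 (1.37) and the polymerase subunit Rev3l (0.66), and 2 without HDT replicate 1 or vehicle replicate 1. The 4 lower genes were chosen for naming after their values were seen. They were Swsap1 (−0.53), Aptx (−0.35), Eme2 (−0.35) and Cetn2 (−0.29). Aptx lost its call in each fit without 1 library (limma adjusted p = 0.0533 to 0.121), and Cetn2 in all of these (0.07 to 0.0774) but the fit without HDT replicate 2. On the deposited scale 0 of the 106 were lower and 98 were higher, beside 62.8% of all tested genes higher and 998 of 18285 lower. In the fits without 1 library, 40 to 45 of the 106 were higher and 2 or 3 lower.

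**Figure D3:**
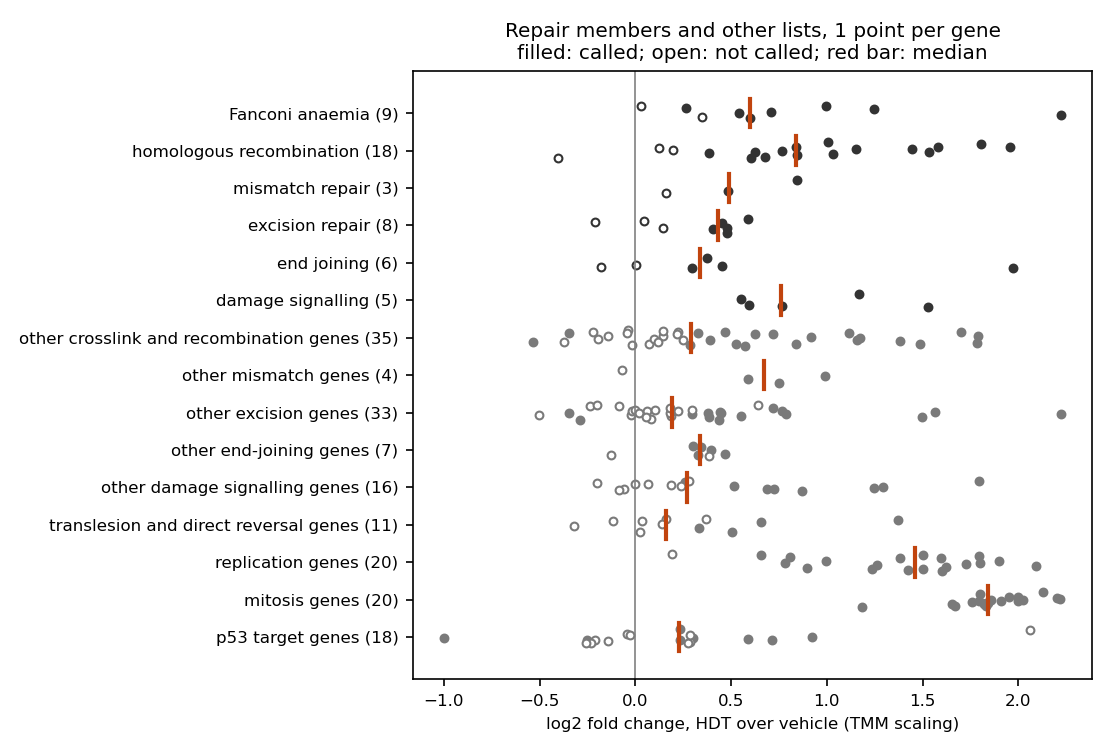
Log2 fold change of each tested gene, HDT over vehicle, by list, with a red bar at the median and the number of tested genes in brackets. The repair groups have medians of 0.34 to 0.84, below the 1.46 of the replication genes and the 1.84 of the mitosis genes.

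Genes of cell division rose too, with larger medians than the repair groups. All 20 mitosis genes were higher, with a median log2 fold change of 1.84, and 19 of 20 replication genes, with a median of 1.46. Of all tested genes 18.4% were higher. The summed level of the mitosis genes was 1182 and 991.4 CPM in HDT mice, against 288.9 and 320.6 CPM in vehicle mice. The summed level of the 49 repair genes was 717.9 and 651.3 CPM in HDT mice, against 464 and 480.6 CPM in vehicle mice. HDT replicate 1 was above HDT replicate 2 for 42 of the 49 repair genes, and for 50.4% of all tested genes, and the sums of both other lists had the same order (855 and 768.5 CPM for replication genes). The part of cell division in the repair genes' rise was not tested. The largest changes among replication genes were those of Rrm2 (2.09), which makes deoxyribonucleotides, and of the polymerase Pole (1.90). Among mitosis genes they were those of the checkpoint kinase Bub1b (2.22) and the topoisomerase Top2a (2.20).

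Calls among the targets of p53, the transcription factor that damage signalling activates, depended on the scaling, as did those of all tested genes. Of 18, 6 were higher and 2 lower with TMM, beside 18.4% and 19.3% of all tested genes. On the deposited scale 16 were higher and 1 lower, beside 62.8% of all tested genes higher. With TMM the median log2 fold change of the list was 0.23, and the largest, 2.06, was not called. Cdkn1a, the cell cycle inhibitor, was at 162 and 188 CPM in HDT mice, against 373 and 327 CPM in vehicle mice. Its log2 fold change was −0.999 (SE 0.09, limma adjusted p = 0.000169), and −0.47 on the deposited scale. The death receptor gene Eda2r, below 1 CPM in every library, had a log2 fold change of 0.92 and lost its call in each fit without 1 library (limma adjusted p = 0.0816 to 0.205). The count of higher targets was 3 without HDT replicate 1 and 2 without vehicle replicate 2. The count of lower ones was 4 without HDT replicate 2 and 1 without either vehicle replicate.

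Markers of cell types moved as well, beside 18.4% of all tested genes called higher and 19.3% called lower. Of 7 parietal cell markers 6 were lower, with a summed level of 1829 and 1471 CPM in HDT mice, against 11870 and 13010 CPM in vehicle mice. Of 5 tested chief cell markers 4 were lower (45430 and 32100 CPM in HDT mice, against 155600 and 188900 CPM in vehicle mice). The chief count was 3 with DESeq2 size factors, 2 without the low-count filter and 5 in the DESeq2 test. The parietal count was 5 without the filter and 7 in the DESeq2 test. All 4 pit cell markers were lower (57010 and 70530 CPM, against 106000 and 103000 CPM), though 1 without either vehicle replicate. On the deposited scale 4 parietal, 3 chief and 0 pit cell markers were called lower, as were 998 of 18285 tested genes. Of 6 macrophage markers 5 were higher (308.4 and 240 CPM, against 115.1 and 126 CPM), though 3 without vehicle replicate 1, and of 6 fibroblast markers 5 were higher (1881 and 2116 CPM, against 1026 and 1010 CPM). Of 9 lymphocyte markers, 6 were too low to test, with at most 11 reads in a library and Ms4a1 at 0 in vehicle replicate 1, and Cd4 alone was higher. The 3 that were tested summed to 16.89 and 13.55 CPM in HDT mice and 10.99 and 10.48 CPM in vehicle mice. For all 5 smooth muscle markers the libraries of the groups overlapped. What part these cell types have in the repair genes' levels was not tested.

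The genes of the list lie on 17 chromosomes, and for 20 of the 49 a protein-coding gene that starts within 1000 bases and runs the other way was examined. This neighbour relation was examined after the fold changes were known. Of these neighbours 17 were tested, and 5 were higher and 3 lower, against 18.4% and 19.3% of all tested genes. Beside the 6 repair genes with a rise of at least 2-fold and a tested neighbour, 0 neighbours were higher and 1 was lower. With only 6 such pairs, these counts cannot be set apart from the shares over all tested genes. Fancd2 starts 30 bases from Emc3, a subunit of a membrane insertase, which was at 54.8 ± 0.63 CPM in HDT mice and 60.1 ± 1.58 CPM in vehicle mice (log2 fold change −0.13, SE 0.06). Brca1 starts 194 bases from the autophagy receptor Nbr1, which was at 124 ± 3.56 CPM in HDT mice and 135 ± 13.995 CPM in vehicle mice (log2 fold change −0.12, SE 0.08). Neither neighbour was called.

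In 2 of the 17 tested pairs the neighbour had the higher log2 fold change. Prkdc starts 466 bases from Mcm4, a subunit of the replicative helicase, which was at 48.9 ± 2.54 CPM in HDT mice and 14.1 ± 0.79 CPM in vehicle mice. The log2 fold change of Mcm4 was 1.80 (SE 0.08), against 0.45 (SE 0.12) for Prkdc. Xpc starts 40 bases from Lsm3, a subunit of an RNA-binding ring, which was at 17.8 ± 1.21 CPM in HDT mice and 13.6 ± 1.62 CPM in vehicle mice. The log2 fold change of Lsm3 was 0.39 (SE 0.11, limma adjusted p = 0.0213), against −0.21 (SE 0.09) for Xpc.

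**Figure D4:**
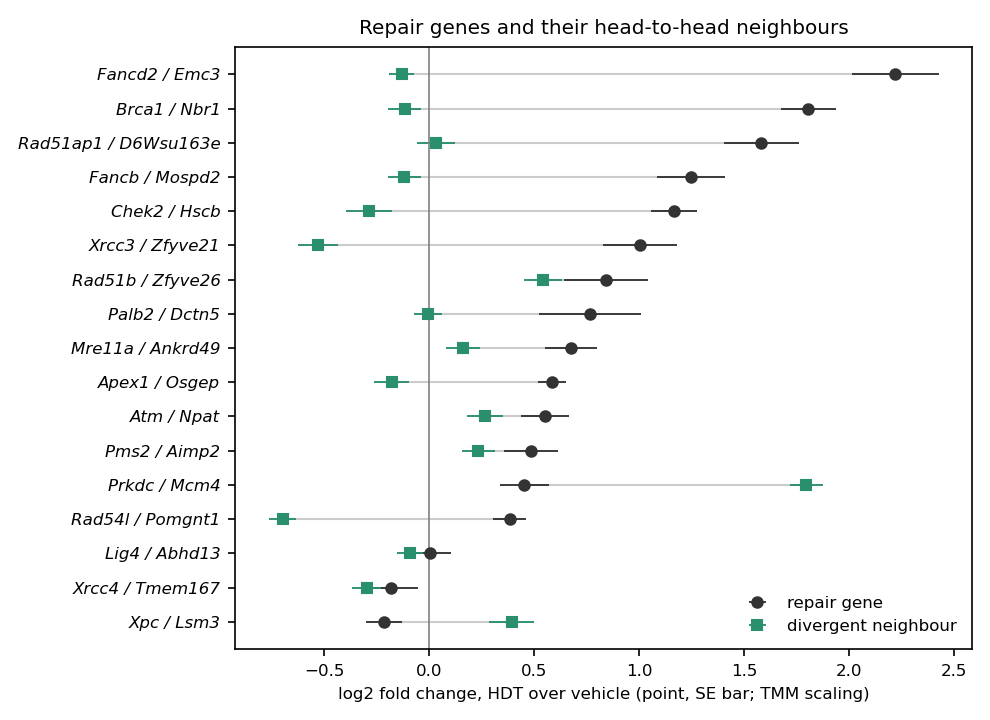
Log2 fold change, HDT over vehicle, of 17 repair genes (circles) and of the protein-coding gene that starts within 1000 bases on the other strand (squares), with SE bars. Fancd2 and Brca1 lie near 2 and their neighbours near 0, while for Prkdc and Xpc the neighbour lies to the right.

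Promoters were searched for the site of E2F factors, which switch on replication genes, spelled as TTTCCCGC, TTTGGCGC, TTTCGCGC or TTTGCCGC on either strand. RefSeq promoters on GRCm38.p6, from 250 bases before to 50 after the start, matched 39 of the 49 genes. The site was in the promoter of 9 of the 39, or 23.1%, against 4.16% of tested genes and 2.6% of all genes with a promoter. Among all tested genes called at least 2-fold higher, 9.11% had it. Of the 39, it was present in 3 of 10 genes that rose at least 2-fold, 5 of 21 with a smaller rise and 1 of 8 without a call. By group it was in 1 of 8 Fanconi anaemia, 3 of 12 homologous recombination and 2 of 3 mismatch repair genes. It was in 0 of 6 excision repair, 1 of 5 end-joining and 2 of 5 damage signalling genes. The letters CCAAT, bound by NF-Y, were found in 59.0% of the 39 against 42.1% of tested genes, and TTTGAA, the cell cycle homology region, in 7.69% against 14.7%, each on either strand and with matches of different motifs free to overlap. A match describes letters only, and these shares were not tested.

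The next 3 promoters hold the E2F letters, in capitals, and show where they sit in genes called higher by different amounts. They are written 5′ to 3′ on the strand of the gene. Msh3, which holds such letters and was not called, is not shown. The site begins 209 bases before the start in Bard1 (log2 fold change 1.45) and 152 before it in Chek2 (1.17). It begins 15 bases after the start in Msh6 (0.85). The positions are chr1:71102923-71103222 (minus strand) for Bard1, chr5:110839733-110840032 (plus) for Chek2 and chr17:87974800-87975099 (plus) for Msh6.
Bard1: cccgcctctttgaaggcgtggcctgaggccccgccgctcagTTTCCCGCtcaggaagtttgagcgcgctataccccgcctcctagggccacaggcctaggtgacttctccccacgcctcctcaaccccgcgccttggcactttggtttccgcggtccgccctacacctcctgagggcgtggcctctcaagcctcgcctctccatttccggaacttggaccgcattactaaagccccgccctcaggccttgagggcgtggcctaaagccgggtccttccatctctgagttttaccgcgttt
Chek2: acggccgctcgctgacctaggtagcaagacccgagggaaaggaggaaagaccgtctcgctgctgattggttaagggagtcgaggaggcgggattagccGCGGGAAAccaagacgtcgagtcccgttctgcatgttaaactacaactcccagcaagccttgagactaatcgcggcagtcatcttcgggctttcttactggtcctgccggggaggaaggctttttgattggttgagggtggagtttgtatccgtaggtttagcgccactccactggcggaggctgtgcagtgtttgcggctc
Msh6: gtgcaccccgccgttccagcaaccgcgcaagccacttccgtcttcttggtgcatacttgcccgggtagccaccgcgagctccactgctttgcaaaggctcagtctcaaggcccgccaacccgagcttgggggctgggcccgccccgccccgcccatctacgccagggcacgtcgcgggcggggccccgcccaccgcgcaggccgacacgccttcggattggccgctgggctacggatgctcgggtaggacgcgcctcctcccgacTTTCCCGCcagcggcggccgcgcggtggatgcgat
The letters are the same in Bard1 and Msh6, TTTCCCGC, and Chek2 has them on the other strand, as GCGGGAAA. The promoters of Exo1 and Fancd2 were not among the 39. Brca1 and Chek1 had none of these letters in this window. The Chek1 window, chr9:36726609-36726908, lies inside the gene position given above, so bases before that gene start were not searched. RefSeq and GENCODE starts also lie apart for other genes, such as Fancc and Xrcc6.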

How the data were processed

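RNA of 4 mouse corpus samples was sequenced, 2 per group. The authors deposited 1 table of normalized gene counts, a signal that is never negative. Dividing by the value of 1 read in each library (1.1192 and 1.1128 in HDT, 1.1381 and 1.12 in vehicle) gave whole reads for 100% of values within 0.01 reads. The submitters' processing notes name STAR 2.7.1a, featureCounts of Subread 2.0.0, edgeR and GRCm38. No source used here gives the normalization, annotation or strand setting, so overlapping genes may share reads.

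The deposited signal was rescaled by TMM factors of the recovered reads (1.22 and 1.183 in HDT, 0.848 and 0.818 in vehicle), and log2(value + 1) was tested with limma 3.58.1 (trend, robust), two-sided, with Benjamini-Hochberg adjustment at 0.05 over 18285 genes kept by the edgeR 4.0.16 filter. The pseudocount slightly understates the change of low genes. The count tests of edgeR and DESeq2 1.42.0 on recovered reads were alternatives, with R 4.3.3. CPM come from recovered reads and TMM-scaled library sizes. Each library counts as 1 sample because it came from 1 mouse. Counts of replicates differed by more than sampling noise (chi-square per degree of freedom of 30.2 in HDT and 16.2 in vehicle). Positions and lengths are from GENCODE M21.

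The members and all lists were chosen with earlier results of these data known. All members may be named, and of each other list the 2 called genes with the largest absolute fold change. Of the other mismatch genes 1 is reported, and 1 neighbouring gene is not reported here. Of the 110 other repair genes, Hrob, Shld1 and Shld2 had no row under these symbols and Dntt had 0 reads. Other scalings, filters, pseudocounts, left-out libraries and replicate blocks were also tried.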

Additional observations from a re-analysis of the deposited data

How the results depend on the processing

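Of the 49 repair genes, 38 were higher and 0 lower. Leaving out 1 library gave 31 to 37 higher and 0 to 1 lower, the 1 being Blm. DESeq2 called 32 higher and 0 lower. Without 1 library, mismatch repair had 1 to 2 genes higher, end joining 2 to 4, homologous recombination 12 to 15 higher and 0 to 1 lower, Fanconi anaemia 6, excision repair 5 and damage signalling 5. Mismatch repair had 1 higher in the DESeq2 test. With values as deposited, 8 excision genes were higher, and all tested genes split into 11483 higher and 998 lower, against 3370 and 3521 with TMM. All tested genes had 2506 to 2915 higher and 2646 to 3125 lower without 1 library.

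The replicate block, which pairs equal replicate numbers, gave 33 repair genes higher, with 1 in mismatch repair and 2 in end joining, and 2371 higher and 2630 lower over all genes. Whether equal replicate numbers mark a pairing is not known. Deviations of equal-numbered samples had a correlation of −0.142 across 18285 genes. The genes are not independent, so this value cannot exclude a pairing. The crossed replicate block, added after the data were seen, gave 39 repair genes higher and 1 lower (1 lower in homologous recombination), and 4200 higher and 4321 lower over all genes.

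Uncalled genes changed sign. With values as deposited the log2 fold change was 0.13 for Blm, 0.32 for Xpc and 0.35 for Xrcc4. Without 1 library it ranged from −0.03 to 0.09 for Fance, from −0.04 to 0.14 for Ercc1 and from −0.05 to 0.06 for Lig4. The causes were not tested. Groups of 2 mice and as few as 39 reads limit the low genes.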
